A study of Mus musculus with 24 samples.

Results

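The 10 genes described here are *Trp53*, which encodes the transcription factor p53, and 9 genes that p53 is known to activate or that take part in the arrest of stressed cells: *Mdm2*, *Ccng1*, *Cdkn1a*, *Btg2*, *Gadd45a*, *Sesn1*, *Sesn2*, *Trp53inp1* and *Plk2*. They were found by their symbols, each in 1 row of both tables, among 56691 genes per table. The set was chosen by its FPKM values, namely for the higher *Sesn1* level of knockout bone marrow-derived macrophages (BMDMs) with lipopolysaccharide (LPS), so values of that contrast are given below as a description without a test. RNA was sequenced from 24 libraries in 8 groups of 3. Of these groups, 4 were RAW264.7, a macrophage-like mouse cell line, wild type (WT) or labelled knockout (KO) for *Olfml3*, each with PBS or with LPS. The others were BMDMs of the same genotypes and treatments. LPS, the bacterial cell wall product that macrophages sense through TLR4, was given at 100 ng/mL for 4 h. The RAW264.7 knockout was made with Cas9 and guide RNA from a lentivirus and grown from single cells, and which clone or guide was sequenced is not stated, so the 3 libraries of a group may come from 1 clone. BMDMs came from 8-week-old male C57BL/6 mice, either *Olfml3*+/+ or with the gene deleted in every tissue, and were grown for 6 days with 20% L929 supernatant as the source of the macrophage growth factor. The labels do not say whether replicates were separate cultures or animals, so p-values measure the spread between these libraries, which may be technical.

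p53 is held at low levels in resting cells by MDM2, a ubiquitin ligase whose own gene p53 switches on, so that the pair forms a feedback loop. DNA damage and other stresses stabilise p53, which then raises *Cdkn1a* (p21, an inhibitor of cyclin-dependent kinases), the antiproliferative gene *Btg2*, the growth arrest gene *Gadd45a*, the sestrins *Sesn1* and *Sesn2*, which restrain mTORC1 and support antioxidant defence, and *Trp53inp1*, a cofactor of p53 in cell death and autophagy. Several of these genes also answer to other factors: *Sesn1* to FOXO proteins, *Sesn2* to ATF4 and NRF2, and *Cdkn1a* to macrophage activation. Macrophages treated with LPS stop dividing, and p21 is known to restrain their inflammatory response.

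The promoters of *Cdkn1a*, *Mdm2*, *Ccng1* and *Sesn1* are shown because these members represent the inhibitor, the feedback loop and the sestrin for which the set was picked, and because p53 motifs are placed differently in them. The sequences are RefSeq promoters of GRCm38.p6, from 250 bases before to 50 bases after a start site, written on the gene's strand. Capitals mark p53 half-sites, 10 bases each, with at most 1 mismatch outside the 4 core bases.
*Cdkn1a*, upstream start, chr17:29090729-29091028, plus strand: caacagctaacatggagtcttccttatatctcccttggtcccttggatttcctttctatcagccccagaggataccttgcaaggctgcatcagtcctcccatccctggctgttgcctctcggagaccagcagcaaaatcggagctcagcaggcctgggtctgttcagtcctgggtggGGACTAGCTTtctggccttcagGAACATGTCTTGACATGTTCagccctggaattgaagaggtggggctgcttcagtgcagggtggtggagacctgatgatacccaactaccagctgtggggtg
*Mdm2*, chr10:117710709-117711008, minus strand: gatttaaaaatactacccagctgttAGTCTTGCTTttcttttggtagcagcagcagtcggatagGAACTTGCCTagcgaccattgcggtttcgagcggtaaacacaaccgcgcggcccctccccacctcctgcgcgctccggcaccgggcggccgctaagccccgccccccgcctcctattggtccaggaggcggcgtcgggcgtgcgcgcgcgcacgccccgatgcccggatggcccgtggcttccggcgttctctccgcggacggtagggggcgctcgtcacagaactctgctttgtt
*Ccng1*, chr11:40755237-40755536, minus strand: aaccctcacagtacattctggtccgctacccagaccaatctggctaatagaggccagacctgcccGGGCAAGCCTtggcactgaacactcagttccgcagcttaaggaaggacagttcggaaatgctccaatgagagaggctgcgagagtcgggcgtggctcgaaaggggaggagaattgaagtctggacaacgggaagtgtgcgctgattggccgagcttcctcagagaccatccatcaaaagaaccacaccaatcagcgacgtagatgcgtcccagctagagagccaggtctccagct
*Sesn1*, upstream start, chr10:41810324-41810623, plus strand: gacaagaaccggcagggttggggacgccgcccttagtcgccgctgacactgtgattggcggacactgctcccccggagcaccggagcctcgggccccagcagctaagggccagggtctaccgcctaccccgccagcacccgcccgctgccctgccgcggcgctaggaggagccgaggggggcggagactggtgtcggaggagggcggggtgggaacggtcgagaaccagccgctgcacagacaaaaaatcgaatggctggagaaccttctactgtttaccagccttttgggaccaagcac
*Sesn1*, downstream start, chr10:41887189-41887488, plus strand: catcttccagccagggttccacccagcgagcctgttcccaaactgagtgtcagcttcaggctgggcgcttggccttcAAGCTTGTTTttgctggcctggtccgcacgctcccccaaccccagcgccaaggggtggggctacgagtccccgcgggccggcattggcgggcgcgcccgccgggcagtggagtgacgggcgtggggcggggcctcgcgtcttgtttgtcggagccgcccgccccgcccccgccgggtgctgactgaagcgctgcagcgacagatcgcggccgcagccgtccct

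Both strands were searched. The upstream *Cdkn1a* promoter held the only full p53 site of the set, which is a pair of half-sites side by side, and it began 51 bases before the start. Such a site was found in 77 of 32851 promoters (0.234%). A half-site without mismatch stood in the promoters of *Trp53*, *Cdkn1a*, *Mdm2*, *Ccng1* and *Gadd45a* and at the downstream start of *Sesn1*, against 8.36% of all promoters, and 39.6% held one with up to 1 mismatch outside the core, *Btg2* among them. The upstream start of *Sesn1* held no p53 half-site and 1 FOXO motif (GTAAACA), which is in 3.65% of promoters and also in that of *Mdm2*. *Sesn2* and *Plk2* held no p53 half-site in this window, and *Trp53inp1* was not in the table. The antioxidant motif TGACNNNGC was found for *Trp53*, *Sesn2* and the downstream start of *Cdkn1a* and in 12.4% of promoters, the ATF4 motif TGATGNAA in no member and in 3.97%, and the NF-kB motif in *Trp53* and in 4.51%. A motif is a description of the letters and not evidence of binding. In GENCODE M21 on GRCm38, the genes lie at chr11:69580359-69591873 (*Trp53*), chr17:29090976-29100727 (*Cdkn1a*), chr10:117688875-117710758 (*Mdm2*) and chr10:41809935-41908424 (*Sesn1*).

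The RAW264.7 libraries held 11638273 to 16478616 counts each, and the BMDM libraries 17121240 to 22873094. *Olfml3* was near 0 in KO BMDMs, with 6 counts over 3 libraries with PBS and 1 with LPS against 243 and 102 in WT. In RAW264.7 it went against the label, with 18.7 ± 0.311 FPKM (SD, n = 3) in libraries labelled KO with LPS against 0.183 ± 0.0924 in WT, so these are called libraries labelled knockout. The 6 macrophage markers were all above 1 FPKM on average in every group. Their summed FPKM was 1120 to 1390 in RAW264.7 libraries labelled knockout and 3330 to 3990 in WT, and 12100 to 17700 in BMDMs. With PBS *Lyz2* was at 317 FPKM in libraries labelled knockout against 2052 in WT RAW264.7. *Csf1r* alone of the 6 was higher there with PBS (340 against 263), and with LPS all 6 were lower. T, NK, B and stromal markers summed to at most 1.05 FPKM in any library, and neutrophil markers to at most 0.73 in RAW264.7 and to 5.33 to 8.61 in BMDMs. Among RAW264.7 libraries with PBS, replicate 1 of those labelled knockout stood apart from replicates 2 and 3 (chi-square per degree of freedom 80.3 and 81.1, against 1.84 to 2.72 for the other RAW264.7 pairs), so results that use it are given with and without it. The 3 WT BMDM libraries with LPS also stood further apart (4.76 to 10.4) than the other BMDM pairs (1.76 to 2.68), and with any 1 of them left out 8 members were still called for LPS against PBS. The labels name no sequencing batch.

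**Figure D1:**
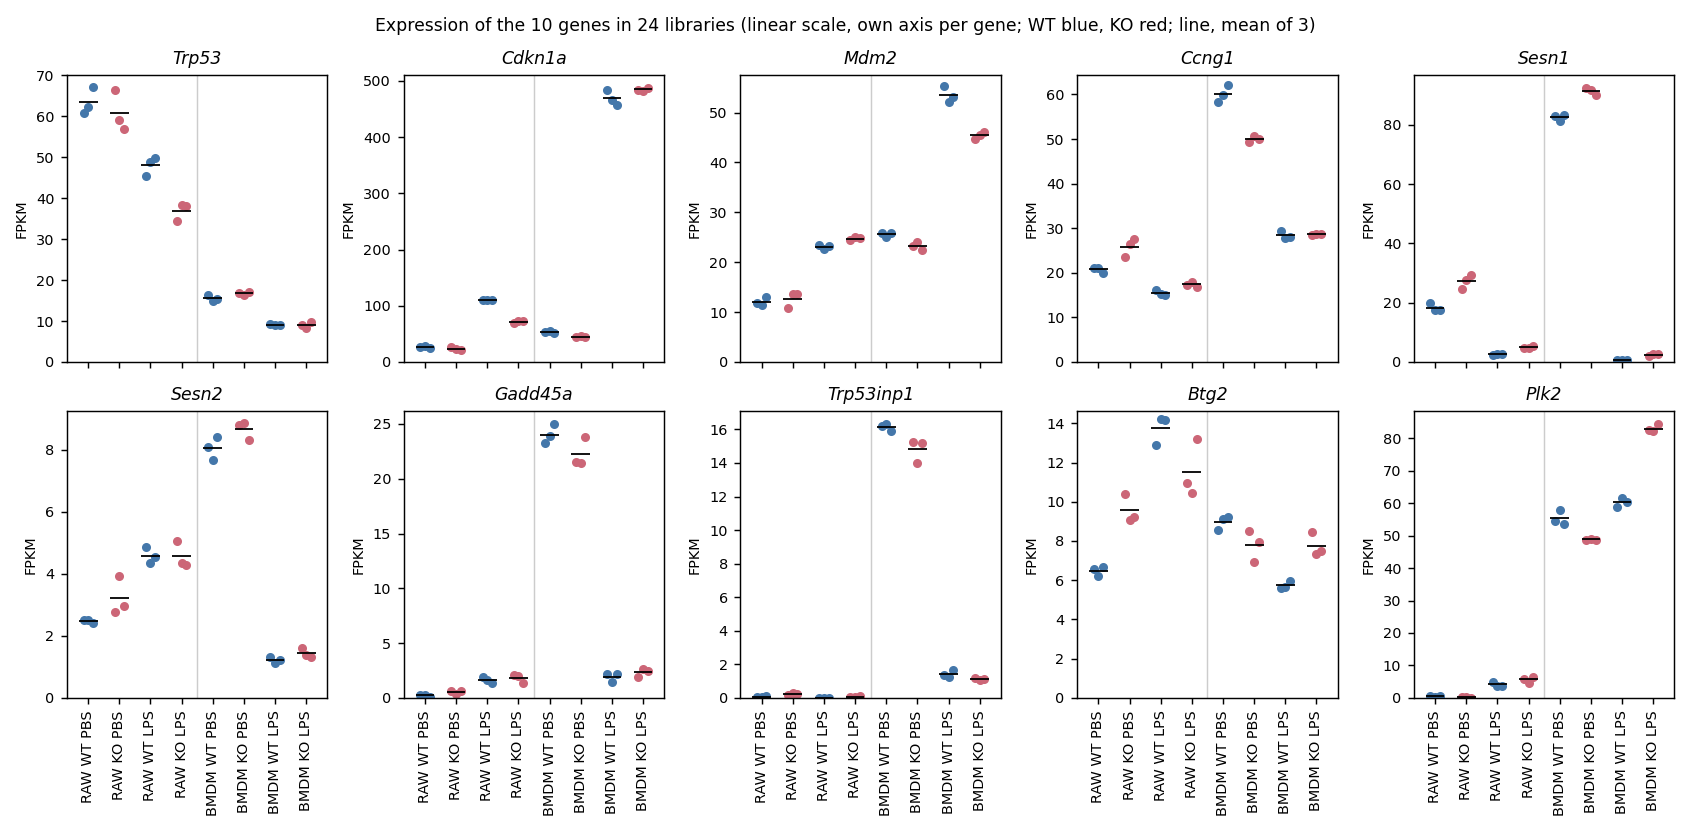
Expression of the 10 genes in 24 libraries. Each panel is 1 gene, the vertical axis is FPKM on a linear scale of its own starting at 0, points are libraries (WT blue, KO red), and black lines are means of 3. *Cdkn1a* sat between 457 and 488 FPKM in BMDMs with LPS and at 111 or below in the other groups, and *Sesn1* between 81.3 and 92.4 in BMDMs with PBS and at 2.75 or below with LPS.

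Without LPS, the wild-type cells of the 2 kinds differed in which of these genes they expressed. Levels are FPKM, which are scaled to gene length and library size. RAW264.7 cells had *Trp53* at 60.9, 62.2 and 67.3 FPKM, and BMDMs at 16.3, 14.8 and 15.5. All 3 RAW264.7 libraries stood above all 3 BMDM libraries, and the mean was 4.09 times as high. The other 9 genes had higher mean levels in BMDMs. *Sesn1* was at 83.0, 81.3 and 83.3 FPKM in BMDMs and at 19.9, 17.5 and 17.4 in RAW264.7 cells, a ratio of means of 4.52. *Gadd45a* was at 23.2, 23.9 and 24.98 FPKM in BMDMs and at 0.3, 0.25 and 0.13 in RAW264.7, where it rested on 17 counts in all. *Plk2*, a polo-like kinase, was at 53.6 to 57.8 FPKM in BMDMs and 0.34 to 0.62 in RAW264.7, and *Trp53inp1* at 15.9 to 16.3 and 0.08 to 0.09. Those 3 genes were thus well expressed in the primary cells and at trace level in the line. For *Cdkn1a*, *Mdm2*, *Ccng1* and *Sesn2* the BMDM means were 2 to 3.25 times the RAW264.7 means, and for *Btg2* 1.39 times. The 2 tables were normalised separately, so these levels are set side by side and were not tested.

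The first comparison asks how LPS changed the set in wild-type cells. In RAW264.7, 6 of the 10 genes rose and 2 fell. *Cdkn1a* rose about 4-fold, *Plk2* and *Gadd45a* rose from trace levels, *Mdm2*, *Btg2* and *Sesn2* rose 1.81- to 2.10-fold, and *Sesn1* and *Trp53inp1* fell. Called here means an adjusted p under 0.05 by limma, with Benjamini-Hochberg adjustment over all 26740 genes tested, and a fold of at least 1.5. Of all genes 18.3% were called, 5.8% higher and 12.5% lower, and of genes at 1 FPKM or more, as 9 of the members were, 33.9%. Differences are log2 fold changes of log2(FPKM + 0.1), which understate the change of low genes. In bulk RNA, a change in the share of cells that express a gene and a change in RNA per cell cannot be told apart.

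*Cdkn1a* was at 26.2, 27.8 and 25.6 FPKM with PBS and at 110, 111 and 111 with LPS. The groups did not overlap and the log2 fold change was 2.05 (SE 0.09, limma adjusted p = 2.06e-07). *Mdm2* went from 11.8, 11.4 and 13.1 FPKM to 23.5, 22.7 and 23.2, a log2 fold change of 0.93 (SE 0.10, adjusted p = 6.55e-05, limma). *Btg2*, which slows proliferation through mRNA turnover, went from 6.58, 6.21 and 6.66 FPKM to 12.9, 14.2 and 14.2, a log2 fold change of 1.07 (SE 0.10, adjusted p = 3.52e-05, limma). *Plk2* and *Gadd45a* reached only 3.72 to 5.06 and 1.34 to 1.9 FPKM with LPS, and their log2 fold changes of 2.84 (SE 0.37) and 2.43 (SE 0.29) start from 95 and 17 counts over 3 libraries. The sestrins moved in opposite directions. *Sesn2* went from 2.41 to 2.52 FPKM with PBS to 4.36 to 4.86 with LPS (log2 fold change 0.86, SE 0.13, limma adjusted p = 0.000668). *Sesn1* went from 17.4 to 19.9 FPKM to 2.26, 2.82 and 2.72, which left 14.2% of the PBS mean (log2 fold change -2.77, SE 0.12, limma adjusted p = 1.11e-07). *Trp53inp1* was called lower (-0.79, SE 0.19, limma adjusted p = 0.0118) on 23 counts with PBS and 2 with LPS, a ratio of PBS to LPS of 11.3 with an exact 95% interval of 2.79 to 99 that covers counting error only. *Trp53* at 45.4 to 49.9 FPKM and *Ccng1*, a cyclin G that acts with MDM2, at 15.04 to 16.1 were below all their PBS libraries, but at 1.32-fold and 1.34-fold they were not called.

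In wild-type BMDMs the same treatment raised *Cdkn1a* and *Mdm2* and lowered *Gadd45a*, *Trp53inp1* and *Sesn2*, and also *Ccng1*, *Trp53* and *Btg2* on the FPKM scale, where the call depended on the scaling. That is 2 higher and 6 lower of the 9 genes tested, while *Sesn1* is left as a description because its LPS libraries were used to pick the set. Of all 26973 genes tested, 40.4% were called, 7.94% higher and 32.5% lower, and of those at 1 FPKM or more 69.3%, and the median log2 fold change was -0.30 over all genes and -0.76 over the 11293 genes at 1 FPKM or more. Scaling by the median ratio moved the median of all genes by 0.30. It moved the members more, with a median over all 10, *Sesn1* included, of -0.92 before and -0.12 after. With that scaling, edgeR or DESeq2 the count was 3 higher and 3 lower, and with quantile normalization 2 higher and 4 lower.

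*Cdkn1a* was at 52.5, 54.6 and 51.7 FPKM with PBS and at 484, 466 and 457 with LPS, the highest level of any member in wild-type cells. Its log2 fold change was 3.15 (SE 0.04, limma adjusted p = 1.9e-11). *Mdm2* went from 25.8, 25.1 and 25.9 FPKM to 55.4, 52.1 and 53.1 (log2 fold change 1.06, SE 0.05, limma adjusted p = 1.73e-08). The p21 gene and the gene of the p53 ligase thus rose in BMDMs as in RAW264.7 cells, by 8.87 and 2.09 times in BMDMs and by 4.16 and 1.91 times in RAW264.7. *Gadd45a* went from 23.2, 23.9 and 24.98 FPKM to 2.17, 1.49 and 2.18, a log2 fold change of -3.58 (SE 0.15, limma adjusted p = 1.7e-08). *Trp53inp1* went from 15.9 to 16.3 FPKM to 1.26 to 1.66 (-3.42, SE 0.09, limma adjusted p = 6.17e-10), and *Sesn2* from 7.67 to 8.4 FPKM to 1.13 to 1.33 (-2.62, SE 0.08, limma adjusted p = 2.22e-09). These 3 genes kept 8.1%, 8.86% and 15.2% of their PBS means. *Sesn1* went from 83.0, 81.3 and 83.3 FPKM to 0.58, 0.75 and 0.57, so that 0.768% of the PBS mean was left, on 169 counts over 3 libraries.

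*Ccng1* went from 58.3, 59.9 and 62.1 FPKM to 29.4, 27.9 and 28.1 and was called lower (-1.08, SE 0.04, limma adjusted p = 1.16e-08), but at -0.27 after median-ratio scaling it was under the fold threshold. *Trp53* had a log2 fold change of -0.77 (SE 0.06, limma adjusted p = 1.52e-06) on the FPKM scale and 0.03 after median-ratio scaling. *Btg2* had -0.63 (SE 0.08, limma adjusted p = 8.49e-05) on the FPKM scale and 0.16 after median-ratio scaling. *Plk2* was at 53.6 to 57.8 FPKM with PBS and 58.7 to 61.6 with LPS, 1.09-fold on the FPKM scale and not called, with a log2 fold change of 0.93 after median-ratio scaling and -0.05 after quantile normalization. Whether these 4 genes were called for LPS against PBS therefore rests on how libraries are scaled. For *Trp53*, *Btg2* and *Plk2* the sign of the change does too.

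**Figure D2:**
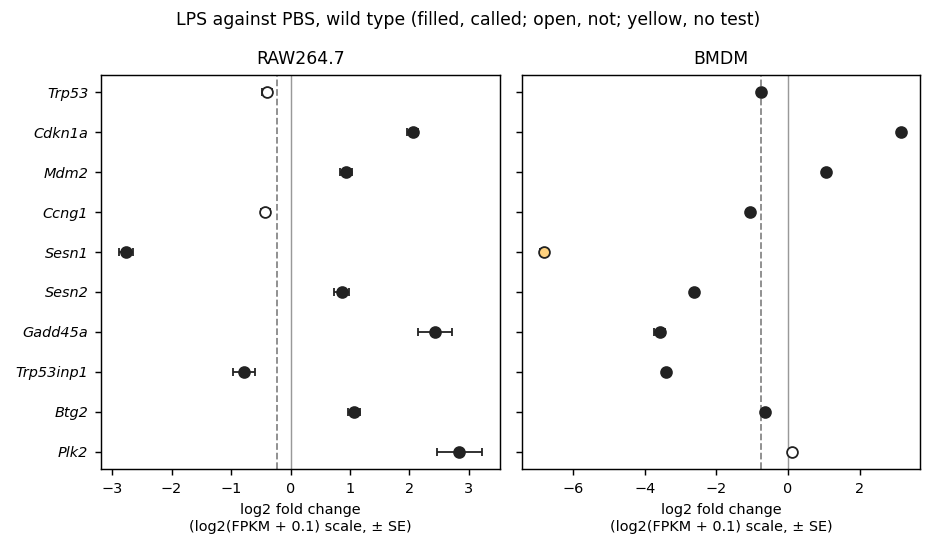
Log2 fold change with LPS against PBS in wild-type RAW264.7 cells and BMDMs, on the log2(FPKM + 0.1) scale with SE (3 libraries per group). Filled points were called, open points were not, the yellow point was not tested, and the dashed line is the median of genes at 1 FPKM or more (-0.22 in RAW264.7, -0.76 in BMDMs). *Cdkn1a* and *Mdm2* lie right of 0 in both panels, while *Gadd45a* and *Sesn2* lie right of 0 in RAW264.7 and left of 0 in BMDMs.

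The knockout comparison with PBS asks whether resting cells labelled knockout differed from wild type. In RAW264.7, 1 of the 10 genes was called, *Trp53inp1*, against 8.55% of all genes (4.79% higher, 3.77% lower) and 13.6% of those at 1 FPKM or more. It was at 0.18, 0.31 and 0.22 FPKM in libraries labelled knockout and at 0.08, 0.08 and 0.09 in WT (log2 fold change 0.86, SE 0.19, limma adjusted p = 0.0193), on 71 and 23 counts, and it was not called with a pseudocount of 0.01 or 1. *Sesn1* was at 24.8, 27.5 and 29.5 FPKM against 19.9, 17.5 and 17.4, all 3 libraries above WT, with a log2 fold change of 0.57 (SE 0.12, limma adjusted p = 0.0131) and a fold of 1.49 that was just under the threshold. *Btg2* was at 10.4, 9.08 and 9.22 FPKM against 6.58, 6.21 and 6.66 (0.55, SE 0.10, limma adjusted p = 0.00921, 1.47-fold), and *Ccng1* at 23.6, 26.5 and 27.5 against 21.2, 21.1 and 20.04 (0.31, SE 0.08, limma adjusted p = 0.0336). These 3 genes passed the adjusted p without reaching 1.5-fold. *Plk2* was at 0.23, 0.28 and 0.03 FPKM against 0.62, 0.34 and 0.56 (-1.23, SE 0.37, limma adjusted p = 0.0618). *Gadd45a* was at 0.65, 0.32 and 0.63 FPKM against 0.3, 0.25 and 0.13 (0.95, SE 0.29, limma adjusted p = 0.0624), and *Sesn2* at 2.78, 3.93 and 2.98 against 2.52, 2.51 and 2.41 (0.35, SE 0.13, limma adjusted p = 0.0967). Neither passed the adjusted p, although the groups did not overlap. *Trp53*, *Cdkn1a* and *Mdm2* overlapped between the groups, with 95% intervals of the log2 fold change of -0.26 to 0.14, -0.40 to 0.02 and -0.15 to 0.29.

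Without replicate 1 of the libraries labelled knockout, the count was 3: *Sesn1* (0.64, limma adjusted p = 0.00266), *Trp53inp1* (0.98, limma adjusted p = 0.0047) and *Plk2* (-1.42, limma adjusted p = 0.0315). Without it *Btg2* had 0.49, *Ccng1* 0.38, *Gadd45a* 0.80 and *Sesn2* 0.45, and these were not called. *Cdkn1a* had -0.28 (limma adjusted p = 0.0108), *Mdm2* 0.17 and *Trp53* -0.13, also not called. The remaining *Cdkn1a* libraries, at 23.1 and 20.6 FPKM, lay below all WT libraries (25.6 to 27.8). The count was 2 without replicate 2, namely *Gadd45a* and *Btg2*, and 0 without replicate 3 or without WT replicate 2 or 3. The lower macrophage marker sum given above goes with the same libraries, and its part in these values was not tested.

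With LPS, RAW264.7 libraries labelled knockout had less *Cdkn1a* and more *Sesn1* than wild type, and more *Trp53inp1* at trace level. That is 3 of 10 genes called, against 17.3% of all genes (9.73% higher, 7.6% lower) and 29.5% of those at 1 FPKM or more. *Cdkn1a* was at 69.4, 72.3 and 73.5 FPKM against 110, 111 and 111, a fall of 35.0% on the log scale (log2 fold change -0.62, SE 0.09, limma adjusted p = 0.00169). The 3 libraries of each group lay close together and far from the other group. As TPM (-0.39) and after quantile normalization (-0.34) *Cdkn1a* was still lower but did not reach 1.5-fold. *Sesn1* was at 4.62, 4.84 and 5.45 FPKM against 2.26, 2.82 and 2.72, a log2 fold change of 0.91 (SE 0.12, limma adjusted p = 0.000636) that was called under every alternative run. *Trp53inp1* was at 0.05, 0.07 and 0.14 FPKM against 0.02, 0 and 0, that is 21 counts against 2, a ratio of 11.9 with an exact 95% interval of 2.9 to 105 for counting error only (limma adjusted p = 0.0155).

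*Trp53* itself was at 34.4, 38.4 and 38.1 FPKM against 45.4, 48.9 and 49.9, without overlap (-0.38, SE 0.09, limma adjusted p = 0.0145), but at 1.30-fold it was not called. *Mdm2*, at 24.4 to 25.1 FPKM against 22.7 to 23.5, had a 95% interval of the log2 fold change of -0.12 to 0.32. *Sesn2* was at 4.28 to 5.07 FPKM against 4.36 to 4.86, with an interval of -0.29 to 0.28, so its groups overlapped where those of *Sesn1* did not. *Ccng1* was at 16.9 to 17.9 FPKM against 15.04 to 16.1 (0.17, SE 0.08, limma adjusted p = 0.164). For *Gadd45a* and *Plk2* the groups overlapped and the intervals were -0.52 to 0.78 and -0.40 to 1.28, so a 1.5-fold rise lay within both.

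The difference between the LPS and the PBS effect was tested directly in RAW264.7 as an interaction, and 1.95% of all genes were called (0.905% positive, 1.04% negative, and 2.84% of those at 1 FPKM or more). Of the members, *Btg2* was called (-0.81, SE 0.15, limma adjusted p = 0.0218). Libraries labelled knockout had more *Btg2* than WT with PBS, and with LPS they had 10.96, 10.5 and 13.2 FPKM against 12.9, 14.2 and 14.2, a range that overlapped. *Btg2* thus rose 2.12 times with LPS in WT and 1.21 times in libraries labelled knockout. The call held without replicate 1 of the libraries labelled knockout with PBS (-0.75, limma adjusted p = 0.0176) and was lost when any 1 of WT PBS replicates 1, 2 and 3, WT LPS replicates 2 and 3 or labelled-knockout LPS replicate 1 was left out (-0.78 to -0.83, limma adjusted p = 0.0516 to 0.067). For *Cdkn1a* the interaction was -0.43 (SE 0.13, limma adjusted p = 0.198), and for *Sesn1* 0.34 (SE 0.16, limma adjusted p = 0.532), so neither knockout difference was shown to depend on LPS. The interaction was 1.67 (SE 0.53) for *Plk2*, -0.81 (SE 0.41) for *Gadd45a*, -0.36 for *Sesn2*, -0.31 for *Trp53*, -0.15 for *Ccng1*, -0.08 for *Trp53inp1* and 0.03 for *Mdm2*, with limma adjusted p from 0.224 to 0.958. That of *Plk2* was called by DESeq2 and by edgeR without the low-count filter. Without replicate 1 of the libraries labelled knockout with PBS, it was 1.85 for *Plk2* (limma adjusted p = 0.123). The interaction was then -0.34 for *Cdkn1a* (limma adjusted p = 0.0729) and 0.27 for *Sesn1* (limma adjusted p = 0.463).

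**Figure D3:**
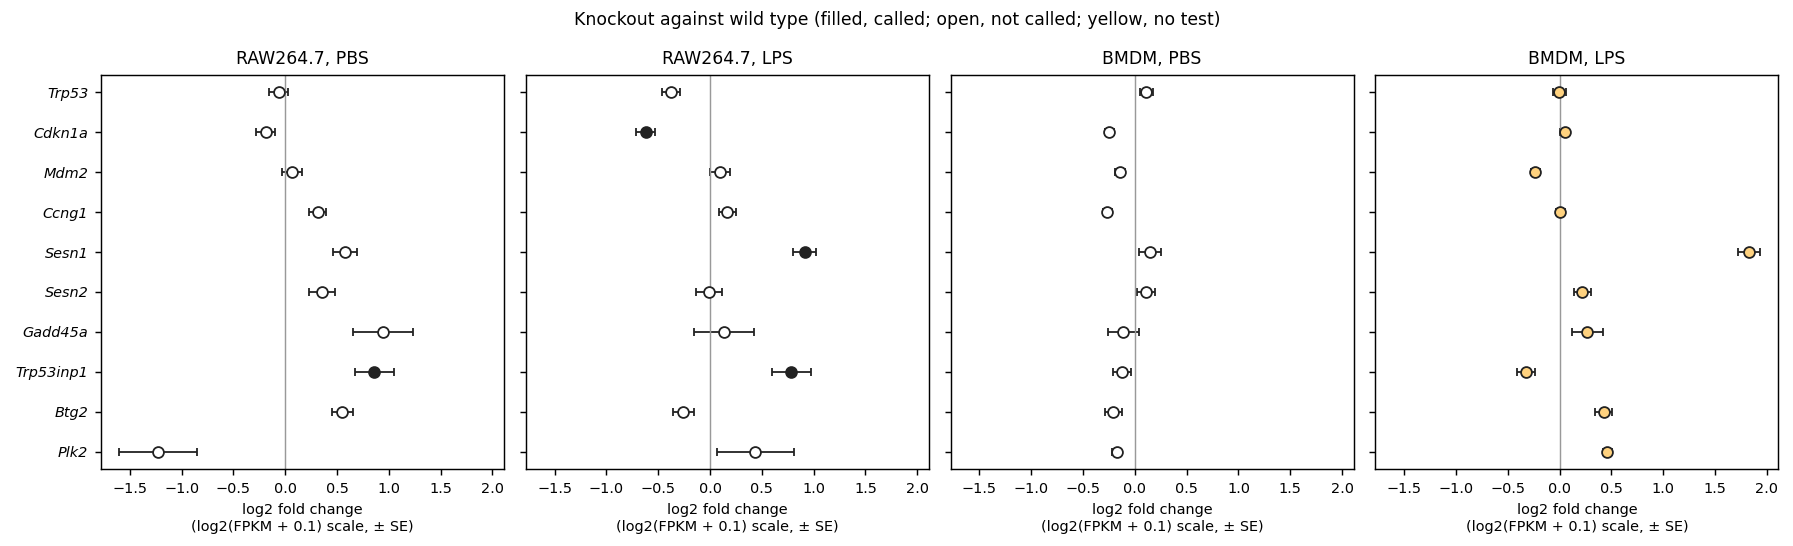
Log2 fold change of knockout against wild type for the 10 genes in RAW264.7 cells and BMDMs with PBS or LPS, on the log2(FPKM + 0.1) scale with SE (3 libraries per group, 1 horizontal scale for all panels). Filled points were called, open points were not, and yellow points were not tested. *Sesn1* lies at 0.57, 0.91, 0.15 and 1.83 in the 4 panels. The value of 1.83 is from the contrast for which the set was picked, and 0.57 and 0.15 were not called.

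In BMDMs with PBS, 0 of the 10 genes were called by limma, against 1.82% of all genes (0.901% higher, 0.916% lower) and 2.92% of those at 1 FPKM or more. By edgeR and DESeq2 0 members were called as well. *Cdkn1a* was at 43.8, 45.9 and 44.1 FPKM in KO against 52.5, 54.6 and 51.7 in WT (log2 fold change -0.25, SE 0.04, limma adjusted p = 0.0127), and *Ccng1* at 49.3, 50.6 and 50.04 against 58.3, 59.9 and 62.1 (-0.26, SE 0.04, limma adjusted p = 0.00753). Both differences were larger than the spread between libraries and, at 1.19-fold and 1.20-fold, below the fold threshold. *Mdm2*, *Btg2* and *Plk2* were lower in all 3 KO libraries than in all 3 WT libraries, with log2 fold changes of -0.14, -0.21 and -0.18 that did not pass the adjusted p (limma, 0.15, 0.277 and 0.0617). *Sesn1* was at 92.4, 91.8 and 90.2 FPKM against 83.0, 81.3 and 83.3, with a 95% interval of the log2 fold change of -0.09 to 0.39. The groups did not overlap, and the interval rests on a spread shared by all 4 BMDM groups, those with LPS included. *Trp53* was at 16.3 to 17.0 FPKM against 14.8 to 16.3, and *Trp53inp1* at 14.01 to 15.2 against 15.9 to 16.3 (-0.12, SE 0.09, limma adjusted p = 0.571). *Sesn2* and *Gadd45a* overlapped, with intervals of -0.08 to 0.29 and -0.45 to 0.23.

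The contrast for which the set was picked was knockout against wild-type BMDMs with LPS. *Sesn1* was at 2.14, 2.75 and 2.61 FPKM in KO and at 0.58, 0.75 and 0.57 in WT, that is 613 against 169 counts, and the ratio of means was 3.95. The log2 fold change was 1.83 (SE 0.11) on the log2(FPKM + 0.1) scale, 1.97 with a pseudocount of 0.01, 1.10 with a pseudocount of 1, and 1.77 to 1.94 with 1 WT library left out. Knockout BMDMs with LPS kept 2.73% of their PBS level of *Sesn1* and WT BMDMs 0.768%, so the gene was far below its PBS level in both genotypes. Of the 10 members, 1 was past 1.5-fold with its groups apart, and of all genes 5.74% were (3.79% higher, 1.95% lower, and 8.65% of those at 1 FPKM or more), from which nothing is read because the set was picked here.

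The other 9 members differed less. *Plk2* was at 82.4, 82.1 and 84.3 FPKM in KO and 58.7, 61.6 and 60.4 in WT (log2 fold change 0.46, SE 0.04), and *Btg2* at 8.44, 7.35 and 7.47 against 5.63, 5.64 and 5.97 (0.42, SE 0.08). *Trp53inp1*, at 1.17, 1.06 and 1.11 FPKM against 1.37, 1.26 and 1.66 (-0.33, SE 0.09), and *Mdm2*, at 44.8, 45.4 and 46.1 against 55.4, 52.1 and 53.1 (-0.24, SE 0.05), were lower without overlap. *Cdkn1a* overlapped at 483 to 488 FPKM in KO and 457 to 484 in WT, as did *Ccng1*, *Trp53*, *Sesn2* and *Gadd45a*. The *Cdkn1a* difference seen with LPS between RAW264.7 libraries thus had no counterpart in size among these BMDM libraries, where the ratio of means was 1.03 against 0.65 in RAW264.7, and the difference between the cell types was not tested.

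Over the 8 groups, *Sesn1* levels ran in the order KO BMDMs with PBS (91.4 ± 1.14 FPKM, SD, n = 3), WT BMDMs with PBS (82.5 ± 1.09), RAW264.7 labelled knockout with PBS (27.3 ± 2.38), WT RAW264.7 with PBS (18.3 ± 1.44), RAW264.7 labelled knockout with LPS (4.97 ± 0.43), WT RAW264.7 with LPS (2.60 ± 0.299), KO BMDMs with LPS (2.50 ± 0.32) and WT BMDMs with LPS (0.633 ± 0.101). Only WT RAW264.7 and KO BMDMs with LPS overlapped among neighbours. The genes whose 8 group means followed *Sesn1* most closely, after centring within each cell type, were *Fastk*, *Tef*, *Ube2g1* and *Usp20* (Pearson r = 0.999 each) and *Atpsckmt* (0.998), out of 10342 genes compared. *Tef*, a PAR-domain transcription factor, had 9.15 and 0.64 FPKM in WT BMDMs with PBS and LPS, and 9.78 and 1.18 in KO. The correlation does not measure the size of a change. In WT BMDMs with PBS and LPS, *Fastk* had 5.99 and 3.6 FPKM, *Ube2g1* 12.4 and 5.37, *Usp20* 1.14 and 0.177, and *Atpsckmt* 2.06 and 0.61. Of the members, *Ccng1* had 0.953 and ranked 1593, and *Cdkn1a* had -0.974. The 8 means share libraries and treatments, so these values are a description.

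Other genes of the p53 pathway were followed as lists. Beside their counts stand the shares of all genes. With LPS against PBS in WT, 18.3% were called in RAW264.7 and 40.4% in BMDMs. For knockout against wild type, 8.55% (PBS) and 17.3% (LPS) were called in RAW264.7 and 1.82% in BMDMs with PBS. In KO BMDMs with LPS 5.74% were past 1.5-fold with groups apart. Of 20 other p53 target genes, 4 rose and 6 fell with LPS in WT RAW264.7, and 1 rose and 12 fell in WT BMDMs (3 and 9 after median-ratio scaling), with medians of -0.24 and -0.86 on the log2 scale beside -0.05 and -0.30 for all genes tested and -0.22 and -0.76 for genes at 1 FPKM or more, as 16 and 17 of the 20 were. *Fas*, the death receptor, rose from 0.197 to 27.5 FPKM in RAW264.7 (log2 fold change 6.63, SE 0.30) and from 1.97 to 29.1 in BMDMs (3.83, SE 0.13). *Fdxr*, the mitochondrial ferredoxin reductase, fell in both, from 10.5 to 4.49 and from 1.40 to 0.117 FPKM. *Pidd1*, a death-domain protein of the PIDDosome, and *Ppm1d*, a phosphatase that opposes p53, fell in RAW264.7, and *Phlda3*, an AKT inhibitor, and *Xpc*, which detects DNA damage, fell in BMDMs. For knockout against wild type, 3 of 20 were higher in RAW264.7 with PBS, including *Zmat3* (2.96 to 5.74 FPKM), an RNA-binding protein, and *Polk* (2.70 to 4.59), a translesion polymerase, and also 3 without labelled-knockout replicate 1. With LPS 1 of 20 was higher in RAW264.7 (4 as TPM), and in BMDMs with PBS limma called 0 of 20. Knockout BMDMs with LPS had 2 of 20 past 1.5-fold, *Gdf15*, a stress cytokine, at 19.6 against 8.87 FPKM, and *Pmaip1* (NOXA, a BH3-only death protein) at 2.16 against 1.35.

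Among regulators of p53, most were higher in RAW264.7 libraries labelled knockout than in WT with LPS. With PBS, 3 of 11 were called higher, namely *Atm* (15.8 against 2.73 FPKM), *Chek1* (17.6 against 9.94) and *Mdm4* (11.8 against 6.43), and 8 of 11 without replicate 1 (7 by edgeR or DESeq2). With LPS, 8 of 11 were higher, against 9.73% of all genes called higher and 29.5% of those at 1 FPKM or more called in either direction, and 0 lower (7 and 1 after quantile normalization, 8 and 1 by edgeR or DESeq2), including the DNA damage kinases *Atm* (13.04 against 1.87 FPKM; log2 fold change 2.74, SE 0.53, limma adjusted p = 0.0063) and *Atr* (5.37 against 2.46), the kinase *Hipk2* (17.2 against 3.89) and the acetyltransferase *Ep300* (10.9 against 4.30). The median of the list was 0.86, beside 0.00 for all genes. In BMDMs limma called 0 of 12 with PBS (1 as TPM), and 0 were past 1.5-fold with LPS. With LPS in WT BMDMs 6 of 12 fell and 2 rose, and 5 each after median-ratio scaling. The checkpoint kinases *Chek2* (6.65 to 0.30 FPKM) and *Chek1* (2.27 to 0.18) were among the falls.

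Paralogs of the members did not always follow them. *Gadd45b* rose from 6.39 to 88.6 FPKM with LPS in WT RAW264.7 and from 26.7 to 263 in BMDMs, where *Gadd45a* fell. *Plk3* rose in RAW264.7 (4.2 to 12.4 FPKM) and fell in BMDMs (2.43 to 0.173). In all 5 of 14 paralogs rose and 4 fell in RAW264.7, and 2 of 15 rose and 8 fell in BMDMs (5 and 5 after median-ratio scaling). Of all genes 18.3% were called in RAW264.7 and 40.4% in BMDMs, and of those at 1 FPKM or more 33.9% and 69.3%. For knockout against wild type, 1 was higher and 1 lower in RAW264.7 with PBS, *Gadd45b* being the lower one (2.91 against 6.39 FPKM; 2 higher and 1 lower without labelled-knockout replicate 1), and with LPS *Cdkn1b* (p27) was the 1 called higher (8.22 against 5.00), or 1 of 4 as TPM. In BMDMs with PBS the 2 called were the mitotic kinases *Plk1* (18.5 against 9.56 FPKM) and *Plk4* (5.19 against 3.42), and with LPS 3 of 15 were past 1.5-fold. Of all genes 1.82% were called in BMDMs with PBS. With LPS 5.74% were past 1.5-fold, and 8.65% of those at 1 FPKM or more.

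The integrated stress response acts through ATF4, which also has *Sesn2* as a target. Of 10 genes of this response, *Ppp1r15a* rose with LPS in both cell types (7.25 to 38.0 FPKM in RAW264.7, 6.94 to 34.5 in BMDMs). In all 3 rose and 2 fell in RAW264.7 (6 and 0 after median-ratio scaling), and 3 rose and 4 fell in BMDMs. Of all genes 18.3% and 40.4% were called, and of those at 1 FPKM or more 33.9% and 69.3%. In RAW264.7 labelled knockout 1 was lower with PBS, *Trib3* (1.88 against 3.91 FPKM; 2 lower without replicate 1), and 3 with LPS, *Ddit4* (1.04 against 3.56), *Trib3* (2.45 against 5.44) and *Psat1* (73.1 against 111). In KO BMDMs with PBS *Psat1* (24.8 against 14.3 FPKM) and *Asns* (21.5 against 12.6), enzymes of serine and asparagine synthesis, were higher and *Ddit3* (CHOP) was lower (14.4 against 22.3). With LPS 1 of 10 was past 1.5-fold there, against 5.74% of all genes and 8.65% of those at 1 FPKM or more.

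Most cell cycle genes, which p21 holds down through the retinoblastoma pathway, fell with LPS in both cell types, where 12.5% (RAW264.7) and 32.5% (BMDMs) of all genes were called lower. Of genes at 1 FPKM or more, as all 15 of the list were, 33.9% and 69.3% were called in either direction. In WT RAW264.7 11 of 15 fell (9 to 10 after other scalings), all but *Bub1*, *Ccnb1*, *Cdk1* and *Top2a*. The cyclin gene *Ccne1* went from 20.47 to 2.93 FPKM there. In WT BMDMs 15 of 15 fell (14 after median-ratio or quantile scaling and by edgeR or DESeq2), such as *Ccna2* (15.7 to 1.84) and *Mcm2* (12 to 1.07). The median log2 fold change of the list in BMDMs was -2.32, beside -0.30 for all genes and -0.76 for those at 1 FPKM or more. In KO BMDMs with PBS 8 of 15 were higher than in WT. Of all genes 0.901% were called higher, and of those at 1 FPKM or more 2.92% were called in either direction. The 8 included *Mki67* (49.1 against 25.9 FPKM; log2 fold change 0.93, SE 0.12, limma adjusted p = 0.00156), *Ccna2* (29.1 against 15.7) and *Ccnb1* (14.5 against 7.73). *Cdkn1a* in the same libraries was 15.8% lower on the log scale, as given above. With LPS it overlapped between the BMDM genotypes (log2 fold change 0.05). Whether the levels of *Cdkn1a* and of the cell cycle genes are linked was not tested. With LPS 10 of 15 were past 1.5-fold in KO BMDMs, such as *Top2a* (9.23 against 4.14 FPKM), and 0 in the other direction. In RAW264.7 limma called 0 of 15 with PBS (1 higher and 1 lower without labelled-knockout replicate 1, and 1 higher by edgeR or DESeq2), and with LPS 1 was higher, *Mki67*, and 3 were lower, *Ccnd1* (11.7 against 38.9 FPKM), *E2f1* and *Pcna*.

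**Figure D4:**
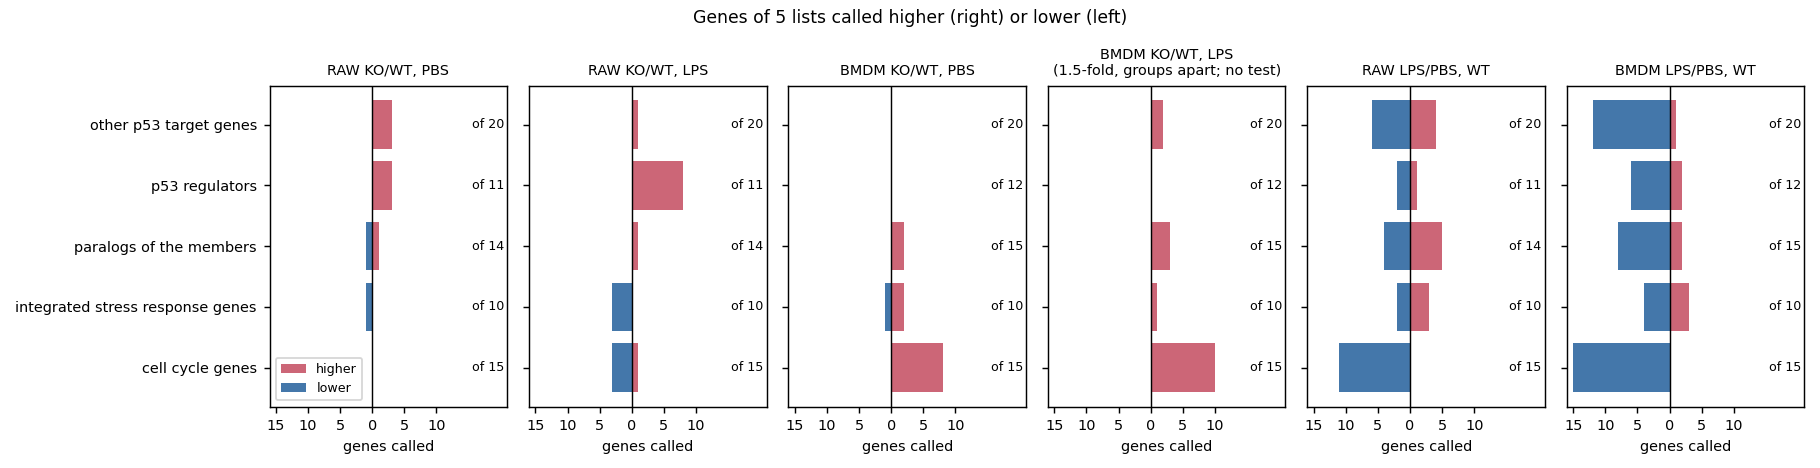
Number of genes of 5 lists called higher (red, to the right) or lower (blue, to the left) in 6 comparisons, with the number tested at the right of each row. In the panel of BMDMs with LPS the bars count genes past 1.5-fold with groups apart, without a test. The cell cycle list points left with LPS (11 and 15 genes) and right in KO BMDMs (8 and 10 genes), and the p53 regulators point right in RAW264.7 with LPS (8 of 11).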

How the data were processed

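Libraries of poly(A) RNA were read in pairs, 150 bases from each end. For each cell type the authors deposited raw counts and FPKM per gene and library. The submitters' processing notes name the build mm10, and no aligner or counting program is named (not given in the sources used here). FPKM remade from counts, exonic length and library totals lay within 1% of the deposited FPKM for 99.88% (RAW264.7) and 99.51% (BMDMs) of values above 50 counts. Gene positions in the tables equal those of GENCODE M21 for 1435 of 52073 shared genes, so positions are printed from GENCODE M21 only. Rows with a gene identifier but no symbol stayed in the tests. *Ddit3* has 2 rows, and the one with the longer exonic length was used.

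Groups were taken from sample titles, because in 12 of 24 samples the genotype tag says otherwise. In R 4.3.3 (data.table, version 1.17.8) limma 3.58.1 was fitted to log2(FPKM + 0.1) with 4 group means over the 12 libraries of a cell type, leaving out genes at 0 in every library (26740 genes tested in RAW264.7, 26973 in BMDMs; 8 residual degrees of freedom, 1.43 and 1.28 prior). p-values were adjusted by Benjamini-Hochberg over all genes tested. Alternatives were pseudocounts of 0.01 and 1, quantile and median-ratio scaling, TPM, an FPKM filter (1 in 3 libraries), an intensity trend, the compared groups alone, a replicate block, no fold threshold, the omission of each library in turn, and count tests by DESeq2 1.42.0 and edgeR 4.0.16 on the deposited counts. Gene lists under other scalings, other tests and without the library that stands apart were added after the data were seen. The scripts were tested on simulated data.

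The members and the lists were chosen with earlier results of these data known. All 10 members are named in every comparison. From each other list at most 4 genes per comparison are named, those with the largest change among called genes with groups apart and a mean of at least 1 FPKM in either group, and so are the 5 genes most like *Sesn1*. Genes given as exceptions within a list are named besides. At these totals a gene at 0.1 FPKM has few counts.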

Additional observations from a re-analysis of the deposited data

Results flagged for a closer look

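For *Btg2* in RAW264.7, the test of the difference in knockout effect between treatments was passed. The effect with LPS minus that with PBS was -0.81 on the log2 scale (interaction term, limma adjusted p = 0.0218), since libraries labelled knockout had more *Btg2* than WT with PBS (9.56 against 6.48 FPKM) and 11.5 against 13.8 with LPS. The call was lost with a replicate block (adjusted p = 0.0568, limma), with a pseudocount of 0.01 (adjusted p = 0.0579, limma) and when any 1 of 6 libraries was left out (adjusted p = 0.0516 to 0.067, limma).

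The following values were singled out because all 3 libraries of each group lay apart in both settings and the directions were opposite, and in each the difference between the settings was not tested. The share of all genes that meet this rule was not counted, so nothing is read from the number of genes. For LPS against PBS in wild type, 3 genes were lower in BMDMs and higher in RAW264.7, and the BMDM log2 fold changes were -3.58 for *Gadd45a*, -2.62 for *Sesn2* and -0.63 for *Btg2*, the last of which was 0.16 after median-ratio scaling. For knockout against wild type with PBS, 3 genes were lower in BMDMs and higher in RAW264.7 labelled knockout. The BMDM values were -0.26 for *Ccng1*, -0.21 for *Btg2* and -0.12 for *Trp53inp1*, and none of these was called. With LPS the same held for *Mdm2* (-0.24 in BMDMs) and *Trp53inp1* (-0.33 in BMDMs). Within BMDMs, 2 genes were higher in knockout with LPS and lower with PBS, *Plk2* at 0.46 and *Btg2* at 0.42 with LPS.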

How the results depend on the processing

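Of results for single genes, 1140 values under an alternative kept their direction and side of the threshold, 39 moved, 33 fell under the threshold, 23 passed it and 26 changed sign, and where no cause is given it was not tested. In RAW264.7 with PBS the count of members called, 1 in the report, was 0 with a pseudocount of 0.01 or 1 or with the compared groups alone, 2 with the FPKM filter, quantile normalization or edgeR without its filter, 3 with edgeR or DESeq2 and 4 as TPM or by the adjusted p alone, and 0 to 3 when 1 library was left out. With LPS, 3 became 1 after quantile normalization. In the interaction, 1 became 0 with a pseudocount of 0.01, 2 with edgeR without its filter or DESeq2 (*Btg2* and *Plk2*), and 0 to 1 when 1 library was left out. In BMDMs with PBS, 0 became 2 by the adjusted p alone, and the *Sesn1* value of 1.83 with LPS became 1.97 and 1.10 with pseudocounts of 0.01 and 1, and 1.60 after quantile normalization.

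The deviations of same-numbered replicates from their group means were only weakly correlated (r from -0.0579 to 0.0844). In BMDMs, for knockout against wild type with LPS and for LPS against PBS, every replicate still correlated best with its own number. In the other comparisons this held for some replicates or none. Whether the numbers pair the samples is therefore not settled by these values. With the replicate number as a block the count of members called in the RAW264.7 interaction fell to 0 (*Btg2* -0.81, limma adjusted p = 0.0568), and the other counts did not change.

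Signs changed for uncalled values near 0 and for some called values. In RAW264.7 with PBS *Trp53* was 0.13 as TPM and 0.14 after quantile normalization, and *Cdkn1a* 0.00 as TPM. With LPS *Sesn2* was 0.22 as TPM and -0.08 to 0.04 without 1 library, and *Gadd45a* -0.06 after quantile normalization. In the interaction *Trp53inp1*, on few counts, was 1.27 with a pseudocount of 0.01, 0.30 as TPM, 0.02 after median-ratio scaling, 1.90 and 1.89 by edgeR with and without its filter, 2.10 by DESeq2 and -0.27 to 0.08 without 1 library, and *Mdm2* was -0.07 and -0.03 without 1 library. For LPS in BMDMs *Trp53* was 0.03 and *Btg2* 0.16 after median-ratio scaling and by DESeq2, *Btg2* was 0.13 and 0.07 by edgeR with and without its filter, and *Plk2* was -0.05 after quantile normalization. These scalings raise the median of all genes by 0.28 to 0.30, and edgeR with its filter raises that of the 14057 genes it keeps by 0.69.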
